A study of Mus musculus with 2 samples.

Results

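The uninjured mouse periosteum library held 137 osteoblast-like lineage cells, which were 6.16% of its 2225 lineage cells (exact Clopper-Pearson 95% interval 5.19% to 7.24%) and 3.09% of its 4431 cells after filtering. A lineage cell was a barcode with at least 3 UMIs (unique molecular identifiers, each standing for 1 captured RNA molecule) and at least 5 per 10000 of the EGFP reporter, and under 3 per 10000 of the complement genes C1qa, C1qb and C1qc summed, which mark macrophages. An osteoblast-like cell was a lineage cell in which Alpl, Ibsp, Bglap and Bglap2 together reached 5 UMIs and 2 per 10000. These measured values chose the cells, so the levels of those 4 genes, of EGFP and of the C1q genes are given as a description. The comparison class was the 1693 lineage cells of the same library with 0 UMIs of the 4 genes (76.1% of lineage cells), and the other 395 lineage cells (17.8%) lay between.

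The cells came from Prx1Cre;mTmG mice. In the mTmG reporter, every cell carries membrane tdTomato until Cre switches it to membrane EGFP, and the Prx1 promoter drives Cre in limb bud mesenchyme, so EGFP marks the descendants of cells that expressed Cre and not the cells that express it now. Periosteum was placed in explant culture with basic FGF in serum-rich medium, the cells that grew out were used without expansion, and live cells were captured with 10x Genomics 3' chemistry. One library came from uninjured periosteum and 1 from periosteum at day 3 after tibial fracture, and both groups share the genotype, the culture and the reporter. How many animals each library pools is not stated in the labels. With 1 library per group there is no replicate, so no p-value is given, and all intervals cover counting error only.

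Osteoblasts are the bone-forming cells of periosteum and marrow. They arise from mesenchymal progenitors through the transcription factors Runx2 and then Sp7 (osterix), secrete type I collagen, and deposit mineral with the help of tissue-nonspecific alkaline phosphatase (Alpl), which removes the mineralization inhibitor pyrophosphate. Bone sialoprotein (Ibsp) and osteocalcin (Bglap, Bglap2) are later products of mineralizing osteoblasts, and some osteoblasts become osteocytes, which express Dmp1, Phex, Mepe and Sost.

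The DNA just upstream of the start sites of 2 genes of the rule, and of Mmp13, the gene with the highest ratio below, is shown because RUNX proteins are textbook regulators of bone genes. Each window holds 250 bases before the start site, from RefSeq on GRCm38.p6, the build behind the deposited coordinates (mm10), and is written on the strand of the gene. Capitals mark the RUNX core ACCACA and the AP-1 motif TGACTCA, both searched on both strands (reverse TGTGGT and TGAGTCA), and the 2 motifs did not overlap. Bglap lies at chr3:88384467-88384716 (minus strand), Ibsp at chr5:104299037-104299286 (plus strand) and Mmp13 at chr9:7272264-7272513 (plus strand).
Bglap: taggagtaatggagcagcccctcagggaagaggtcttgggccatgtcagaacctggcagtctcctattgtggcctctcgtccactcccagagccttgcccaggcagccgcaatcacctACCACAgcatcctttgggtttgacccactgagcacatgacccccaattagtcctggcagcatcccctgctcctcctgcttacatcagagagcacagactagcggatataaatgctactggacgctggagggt
Ibsp: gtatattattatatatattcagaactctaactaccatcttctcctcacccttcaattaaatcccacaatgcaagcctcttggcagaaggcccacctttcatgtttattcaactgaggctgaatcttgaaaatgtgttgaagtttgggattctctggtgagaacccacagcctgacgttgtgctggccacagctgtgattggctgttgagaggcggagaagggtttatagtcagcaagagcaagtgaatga
Mmp13: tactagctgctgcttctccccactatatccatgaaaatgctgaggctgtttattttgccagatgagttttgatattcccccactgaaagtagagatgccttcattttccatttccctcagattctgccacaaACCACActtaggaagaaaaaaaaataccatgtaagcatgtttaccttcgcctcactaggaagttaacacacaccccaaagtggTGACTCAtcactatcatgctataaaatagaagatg
The RUNX core stood at positions -132 to -127 from the start site in Bglap and at -118 to -113 in Mmp13. The AP-1 motif stood at -35 to -29 in Mmp13. Neither set of letters was in the Ibsp window. Of 32851 RefSeq promoter windows of the same length, 14.0% (4614) held the RUNX core and 4.46% (1466) the AP-1 motif, and each match is a description.

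Alpl was the most widespread of the 4 genes of the rule. It was detected in 136 of the 137 cells, with a median of 6 and a maximum of 33 UMIs, and its summed level was 258 CPM (the usual scaling of a gene's UMIs by all UMIs of the class). Ibsp was detected in 85 cells (209 CPM, median 2 UMIs, maximum 53), Bglap in 52 cells (79.5 CPM) and Bglap2 in 75 cells (130 CPM). Alpl gave 38.1% and Ibsp 30.9% of the UMIs of the 4 genes. By pattern, 54 cells held Alpl, Ibsp and osteocalcin together, 30 held Alpl and Ibsp, 24 held Alpl and osteocalcin, 28 held Alpl alone and 1 held Ibsp alone. A pattern counts a gene from 1 UMI, which free RNA can give. After thinning to 5000 UMIs, 3.00% of C1q cells held an Alpl UMI, 0.905% an Ibsp, 0.226% a Bglap and 0.509% a Bglap2 UMI, against 69.3%, 33.6%, 22.6% and 28.5% of the osteoblast-like cells.

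Across the 137 cells, the levels of Alpl and Ibsp per 10000 UMIs had a Spearman correlation of 0.04, Alpl and osteocalcin of -0.18 and Ibsp and osteocalcin of 0.24. These cells share 1 library and were chosen on the sum of these genes, so the values are descriptions. Bglap and Bglap2 had a Spearman correlation of 0.73. The last 200 transcript bases of Bglap and Bglap2, the end that this chemistry reads, are 99.5% identical (1 edit), and those of Bglap3 are 97.0% and 97.5% identical to Bglap and Bglap2. How the UMIs divide among the osteocalcin copies is therefore uncertain.

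The sum of the 4 genes ranged from 2.01 to 49.8 per 10000 with a median of 4.41 (quartiles 2.74 and 7.46), or from 5 to 107 UMIs with a median of 12. Near the threshold, 21 members lay under 2.5 per 10000 and 22 had 5 or 6 UMIs. Just outside, 19 lineage cells had at least 5 UMIs and reached at most 1.97 per 10000, and 21 had 4 UMIs and reached at most 4.08 per 10000. Of the 395 cells between the classes, 225 had 1 UMI and 170 had 2 or more.

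**Figure D1:**
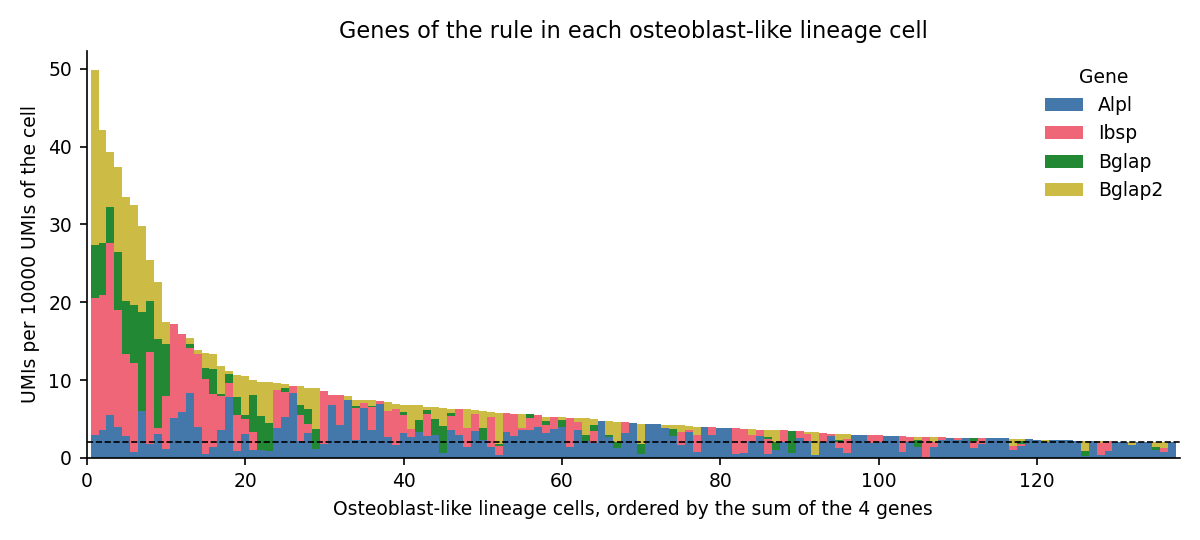
Stacked UMIs of Alpl, Ibsp, Bglap and Bglap2 per 10000 UMIs (vertical axis) in each of the 137 osteoblast-like lineage cells, ordered by their sum (horizontal axis), with a dashed line at the threshold of 2. The sum runs from 49.8 to 2.01 per 10000, and the tallest bars are mostly Ibsp, Bglap and Bglap2 while the low end is mostly Alpl.

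The classes were alike in depth. Osteoblast-like cells had a median of 25485 UMIs (12599 to 62518) and 4552 genes, and 0-UMI lineage cells a median of 24254 UMIs (1327 to 76174) and 4451 genes. The library held 94034112 UMIs in 4573 barcodes and the day 3 library 227191961 UMIs in 16332 barcodes, of which 14463 passed the same filters, and the 2 libraries share 3 barcodes. Their cells passing filters had medians of 19836 and 8127 UMIs. EGFP was lower in osteoblast-like cells (median 14.7 per 10000, 5.74 to 43.5) than in 0-UMI lineage cells (median 25.5, 5.05 to 83.2). The driver gene's transcript Prrx1, which the rule did not use, was lower as well, at 210 against 393 CPM (ratio 0.53, interval 0.50 to 0.57). tdTomato gave 1 UMI in all 137 cells and was at 1.41 CPM even in the 1913 C1q cells (those with C1q genes at or above the limit), so it does not separate the classes in this library.

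Of the other cells of the library, 12 of 1913 C1q cells (0.627%) and 6 of 293 cells low in both EGFP and C1q (2.05%) passed the same threshold on the 4 genes. Those 6 had EGFP at 0.80 to 4.90 per 10000, under the limit of 5. The 12 C1q cells had a median doublet score of 0.119, against 0.016 in the osteoblast-like cells. Removing the highest scores at 0.8% of cells per 1000 barcodes took 2 of the 137 osteoblast-like cells and 23 of the 1693 0-UMI lineage cells.

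Of 2688 genes that reached 50 CPM in 1 or both classes, 73 stood 2-fold or more above the 0-UMI lineage cells in the osteoblast-like cells (2.72%) and 162 stood 2-fold or more below (6.03%), and the median log2 ratio of all of them was -0.13. The 6 highest were the collagenase Mmp13, Cdsn, the cytokine receptor Lifr, the IGF-binding protein Igfbp5, the parathyroid hormone receptor Pth1r and the osteoblast factor Sp7. The genes furthest below included the growth regulator Hmga2, the chemokines Ccl2 and Cxcl5, and the mesenchymal surface protein Thy1. Sp7, Pth1r, Runx2, Dlx5 and Col1a1 took no part in the choice of the cells and were at least 2-fold higher. Phex and Ifitm5 had 1 UMI each, Spp1 and Vdr were lower, and 0 of 5 mineralization genes outside the rule were 2-fold higher. The label of osteoblast-like thus rests on some lineage genes outside the rule and not on all. Of 10 osteocyte genes, given below, 5 had 0 UMIs.

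Sp7, which lies on chromosome 15 (102356606 to 102367182, minus strand), was at 86.9 CPM in osteoblast-like cells and 9.06 CPM in 0-UMI lineage cells, a ratio of 9.59 (8.26 to 11.1). Its level per cell ran from 0 to 3.17 per 10000 with a median of 0.73 in the first and from 0 to 4.58 with a median of 0 in the second, so single cells of the classes overlap while most cells of the comparison class held none. It was detected in 101 of 137 and 280 of 1693 cells. With every cell thinned to 5000 UMIs, 29.2% of osteoblast-like, 4.39% of 0-UMI lineage and 2.32% of C1q cells held an Sp7 UMI (unthinned, 73.7% and 16.5% for the lineage classes). C1q cells, which should lack Sp7, give a background level in which free RNA and doublets were not told apart. The median depth of C1q cells was 13016 UMIs before thinning.

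**Figure D2:**
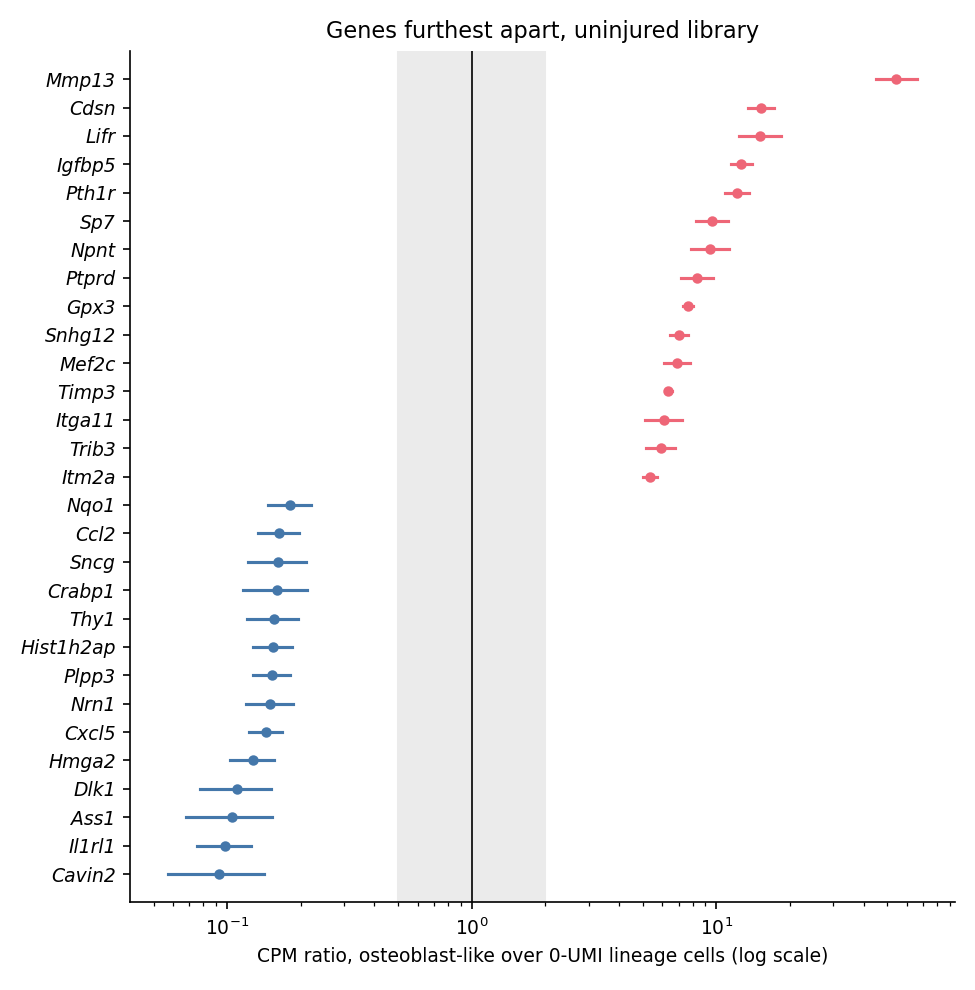
CPM ratio of osteoblast-like over 0-UMI lineage cells (horizontal, log scale) for the 15 genes with the highest (red) and 14 of the 15 with the lowest (blue) ratios among genes at 50 CPM or more, with exact 95% intervals for counting error. The shaded band marks less than a 2-fold difference, and no interval of the 29 genes shown reaches it: Mmp13 stands at 54.3 and Cavin2 at 0.09.

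Of the 12 osteoblast transcription factors listed, 9 reached 10 CPM, and 7 of these were at least 2-fold higher and 0 lower by as much, with a median log2 ratio of 1.75. Among all 7529 genes at 10 CPM or more, 3.05% were that much higher and 6.91% that much lower, with a median of -0.10. Runx2, the master regulator of the lineage, was at 70.8 against 26.9 CPM (ratio 2.63, 2.29 to 3.01), detected in 103 of 137 and 759 of 1693 cells, so it was far less confined to the osteoblast-like cells than Sp7. Mef2c, a factor of osteoblast and muscle differentiation, was at 110 against 16.0 CPM (6.91, 6.11 to 7.81). C1q cells held Mef2c at 89.8 CPM, and 37.5% of them had a UMI after thinning against 31.4% of osteoblast-like and 7.89% of 0-UMI lineage cells. The collagen secretion factor Creb3l1 had a ratio of 3.59 (3.19 to 4.04), and the homeobox genes Dlx6 and Dlx5 of 3.36 and 2.35 (Dlx5 at 1.98 without cycling cells). Atf4, which serves amino acid supply in osteoblasts, stood at 1.92 and Zfp521 at 1.32 (0.56 after thinning, from few UMIs), both under 2-fold. Msx1 (37 UMIs), Msx2 (18) and Dlx3 (4) were too low to count.

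Of 15 bone matrix genes outside the rule, 10 reached 10 CPM, 4 were 2-fold or more higher, 0 that much lower, and the median log2 ratio was 0.97. Col1a1 was at 3736 against 1383 CPM (2.70, 2.65 to 2.75) and Col1a2 at 4773 against 1899 CPM (2.51, 2.47 to 2.55). Every osteoblast-like cell held Col1a1, at 7.22 to 126 per 10000 with a median of 32.0, and the 0-UMI lineage cells ran from 0 to 86.4 with a median of 12.1. After thinning, 100% of osteoblast-like cells (97.3% to 100%) and 92.6% of 0-UMI lineage cells (91.3% to 93.8%) held a Col1a1 UMI, and 50.7% of C1q cells did. Osteomodulin (Omd), a small proteoglycan of bone, was at 30.6 against 3.76 CPM (8.15, 6.37 to 10.4), and periostin (Postn), an adhesion protein named for periosteum, at 108 against 33.9 CPM (3.18, 2.85 to 3.55). Sparc (osteonectin), which binds collagen and calcium, had a ratio of 1.99, and matrix Gla protein (Mgp), an inhibitor of calcification, of 1.02. Osteopontin (Spp1), a phosphoprotein of bone that other cells also secrete, was lower, at 1034 against 1861 CPM (0.56, 0.54 to 0.57), and C1q cells held it at 2509 CPM. Without cycling cells Omd came to 4.36, Postn to 1.93 and Col1a2 to 1.92. Bglap3, the third osteocalcin copy, had 15 UMIs against 4.

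Of 16 genes that fold, export and crosslink collagen, all at 10 CPM or more, 1 was at least 2-fold higher and 0 lower, with a median log2 ratio of 0.19. That gene was the crosslinking oxidase Loxl2 (3.08, 2.72 to 3.48). Its relative Lox stood at 0.62 and the collagen chaperone Fkbp10 at 1.51.

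Of the 11 mineralization genes outside the rule, 5 reached 10 CPM, 0 were at least 2-fold higher and 1 was lower, with a median log2 ratio of -0.80, which turned to 0.20 with cells thinned to 5000 UMIs. The lower gene was Enpp1, which makes the pyrophosphate that Alpl removes, at 2.90 against 11.1 CPM (0.26, 0.13 to 0.47). Ank, which exports pyrophosphate, was at 16.1 against 28.1 CPM (0.57, 0.43 to 0.74), and the phosphate carriers Slc20a1 and Slc20a2 stood at 0.56 and 0.80. Thinned to 5000 UMIs, Slc20a1 turned to 1.31 and Ank came to 0.90. Smpd3, a sphingomyelinase needed for mineral, had 32 UMIs against 66 over the far larger class (5.65, 3.58 to 8.75), and 37.5% of those 32 came from 1 cell. Phospho1, which frees phosphate inside matrix vesicles, had 0 UMIs. Fewer than 3 UMIs were found for Phex and for Ifitm5, 1 each.

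Of the 10 osteocyte genes, 5 had 0 UMIs in the osteoblast-like cells: Sost, Dmp1, Mepe, Fgf23 and Dkk1. A count of 0 in 3787754 UMIs allows up to 3 UMIs, which is 0.792 CPM. Among the 4 at 10 CPM or more, which other mesenchymal cells also express, 1 was at least 2-fold lower: the chemokine scavenger Ackr3, with 3 UMIs against 500 (0.070, 0.014 to 0.21), and it came to 0.34 after thinning. Fewer than 3 UMIs count as 3 in a ratio, so with 3 member UMIs before thinning the thinned value rests on that floor.

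Of 18 genes for receptors of hormones and growth factors, 14 reached 10 CPM, 5 were at least 2-fold higher and 2 lower, with a median log2 ratio of 0.35. Pth1r, the receptor for parathyroid hormone and its related peptide, was at 174 against 14.4 CPM (12.1, 10.9 to 13.5), in 120 of 137 and 431 of 1693 cells. After thinning, 44.5% of osteoblast-like cells held a Pth1r UMI, against 6.88% of 0-UMI lineage cells and 3.23% of C1q cells. Lifr, the receptor for leukaemia inhibitory factor, was at 62.6 against 4.17 CPM (15.02, 12.3 to 18.3), in 78 of 137 and 160 of 1693 cells, and 11.4% of its UMIs came from 1 cell. The other 3 higher receptors were picked after their values were seen: Fgfr2 (4.14, 3.55 to 4.82), Fgfr1 (3.40, 3.18 to 3.63) and Tgfbr2 (2.10, 1.81 to 2.43, and 1.84 without cycling cells). Fgfr3, under the limit of 10 CPM, was at 7.13 against 0.61 CPM (11.7, 6.58 to 20.7), from 27 UMIs in each of these classes of unequal size. The 2 lower genes were Pdgfra, a receptor of mesenchymal progenitors (16.1 against 64.9 CPM, 0.25, 0.19 to 0.32), and the vitamin D receptor Vdr (7.92 against 19.6 CPM, 0.40, 0.27 to 0.58, and 0.55 against 0-UMI lineage cells of matched depth).

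Of 6 BMP genes at 10 CPM or more (of 15), 1 was at least 2-fold higher and 3 were lower, with a median log2 ratio of -1.03. The ligand Bmp4 was at 28.8 against 6.36 CPM (4.52, 3.59 to 5.66), while Id1 and Id2, direct targets of BMP signals, were at 38.3 against 168 CPM (0.23, 0.19 to 0.27) and 41.2 against 129 CPM (0.32, 0.27 to 0.38). The antagonist Grem1, named after its value was seen, stood at 0.45 and at 0.55 with members at 3 UMIs and 1 per 10000. Of 10 WNT genes at 10 CPM or more (of 20), 5 were higher and 2 lower, with a median log2 ratio of 1.40. Nkd1, a feedback inhibitor, was at 16.4 against 2.54 CPM (6.45, 4.65 to 8.88), and Lrp4, a receptor that binds sclerostin, at 38.3 against 6.88 CPM (5.56, 4.53 to 6.80). The other 3, named after their values were seen, were the ligand Wnt10b (4.98, 3.37 to 7.25), Dkk3 (3.98, 3.69 to 4.30) and Sfrp4 (3.76, 2.68 to 5.20, and 1.85 without cycling cells). Unlike Sfrp4 of the same family, the secreted antagonists Sfrp2 (31.9 against 148 CPM, 0.22, 0.18 to 0.26) and Sfrp1 (0.495, 0.36 to 0.66) were lower. Sfrp1 came to 0.68 after thinning, and Sfrp2 to 0.081 under the stricter and 0.499 under the looser threshold on members and 0.37 at matched depth.

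Of 11 genes for signals to osteoclasts, 7 reached 10 CPM, 0 were at least 2-fold higher and 4 lower, with a median log2 ratio of -1.59. RANKL (Tnfsf11), the cytokine that drives osteoclast formation, had 9 UMIs against 633 (2.38 against 14.3 CPM, 0.17, 0.075 to 0.32, and 0.41 with members at 3 UMIs and 1 per 10000), and the monocyte attractant Ccl2 was at 30.1 against 185 CPM (0.16, 0.13 to 0.20). Csf1, the macrophage growth factor, and Ccl7, both named after their values were seen, stood at 0.33 (0.29 to 0.37) and 0.19 (0.16 to 0.22). Osteoprotegerin (Tnfrsf11b), the decoy receptor of RANKL, was at 17.2 against 11.2 CPM (1.53, 1.17 to 1.99). The osteoclast ligand was thus lower, and its decoy no lower, in the cells with osteoblast products.

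Igfbp5, the IGF-binding protein abundant in bone, was at 204 against 16.1 CPM (12.7, 11.4 to 14.04), in 86 of 137 and 166 of 1693 cells. Igf1 was at 26.1 against 102 CPM (0.26, 0.21 to 0.31, and 0.48 with members at 3 UMIs and 1 per 10000) and Igfbp6 at 112 against 372 CPM (0.30, 0.27 to 0.33). In all, 1 of 6 IGF genes at 10 CPM or more (of 9) was at least 2-fold higher and 2 were lower, with a median log2 ratio of 0.02.

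Other leading genes were not bone genes by name. Mmp13, the collagenase of bone and cartilage, on chromosome 9 (7272514 to 7283331, plus strand), was at 159 against 2.92 CPM (54.3, 44.8 to 66.2). It was detected in 64 of 137 and 49 of 1693 cells, its highest cell stood at 34.5 per 10000 and gave 12.8% of the sum, and its median cell held 0, so the difference came from a subset. Its ratio was 24.0 without cycling cells, 88.4 under a stricter threshold of 10 UMIs and 4 per 10000, and 108 against 0-UMI lineage cells at least as deep as the lower quartile of the members (21400 UMIs). Cdsn, known as corneodesmosin of skin, was at 159 against 10.5 CPM (15.2, 13.4 to 17.2), in 76 of 137 cells, and at 9.28 without cycling cells. Timp3, an inhibitor of matrix proteases, was the most abundant of the 15 highest, at 1656 against 260 CPM (6.37, 6.17 to 6.57), and the secreted peroxidase Gpx3 was at 885 against 116 CPM (7.65, 7.32 to 7.99). Npnt (nephronectin), a matrix protein, had a ratio of 9.42, its fellow matrix-binding gene Itga11, a collagen receptor subunit, of 6.09, the phosphatase Ptprd of 8.36, the non-coding host gene Snhg12 of 7.03 and the membrane protein Itm2a of 5.34. Snhg12 and Itm2a came to 4.15 and 3.27 without cycling cells.

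The lowest ratio was that of Cavin2, a coat protein of caveolae, at 5.54 against 59.9 CPM (0.092, 0.057 to 0.14), but it was 0.22 without cycling cells. The IL-33 receptor Il1rl1 was at 16.9 against 173 CPM (0.098, 0.075 to 0.13), with a median of 0 per 10000 in osteoblast-like and 0.69 in 0-UMI lineage cells, and it came to 0.064 without cycling cells. Hmga2, a chromatin protein of growing mesenchyme, was at 25.3 against 199 CPM (0.13, 0.10 to 0.16), and the imprinted gene Dlk1 at 9.77 against 89.1 CPM (0.11), with 35.1% of its UMIs in the osteoblast-like class from 1 cell. Also among the 15 were Ass1, Cxcl5, Nrn1, Plpp3, the histone gene Hist1h2ap, Thy1, Crabp1, Sncg, Ccl2 and Nqo1, with ratios from 0.10 to 0.18.

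Of 12 genes of universal fibroblasts and of the stem cell antigen class, 6 reached 10 CPM, 0 were at least 2-fold higher and 4 lower, with a median log2 ratio of -1.46. Cd34 was at 4.49 against 39.2 CPM (0.11, 0.067 to 0.18), in 16 of 137 and 737 of 1693 cells, and 0.73% of osteoblast-like cells held a UMI after thinning against 16.4% of 0-UMI lineage and 5.60% of C1q cells. Ly6c1 was at 53.1 against 167 CPM (0.32, 0.27 to 0.37). Ly6a (Sca-1), named after its value was seen, was at 217 against 648 CPM (0.34, 0.31 to 0.36), yet 127 of 137 osteoblast-like cells held at least 1 UMI of it. After thinning 59.1% of osteoblast-like and 75.1% of 0-UMI lineage cells held Ly6a, and 39.3% of C1q cells did as well.

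Of 6 reticular stromal genes at 10 CPM or more (of 11), 0 were at least 2-fold higher and 1 was lower (Kitl, stem cell factor, 0.30). Without cycling cells 4 of 7 reticular genes were 2-fold lower or more (median log2 ratio -1.27), and under the stricter threshold 3 of 6 were. Of 8 tendon genes (of 13), 2 were higher and 2 lower: the tendon factor Scx (2.68, 2.34 to 3.06) and the collagen-binding Fmod (2.98, 2.76 to 3.22, and 1.66 without cycling cells) against Thbs4 (0.11) and Tnmd (0.26). Without cycling cells, 1 tendon gene was higher and 4 were lower, of 9. Of 2 cartilage genes (of 15), Col11a1, a fibrillar collagen also made in bone, stood at 3.44 (3.20 to 3.70) and Sox9, the master factor of cartilage, at 0.72, and 5 of the 15 had 0 UMIs. Of 10 contractile genes (of 13), 0 lay past 2-fold either way, with Tpm1 the highest at 1.93 and Tpm2 the lowest at 0.81, but 3 were at least 2-fold higher without cycling cells (median log2 ratio 0.64). The limb position genes Hoxc10 (1.22) and Hoxa9 (0.66) stayed within 2-fold, and Shox2, a limb bud factor, was the 1 of 7 that did not (124 against 44.3 CPM, 2.79, 2.52 to 3.09).

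**Figure D3:**
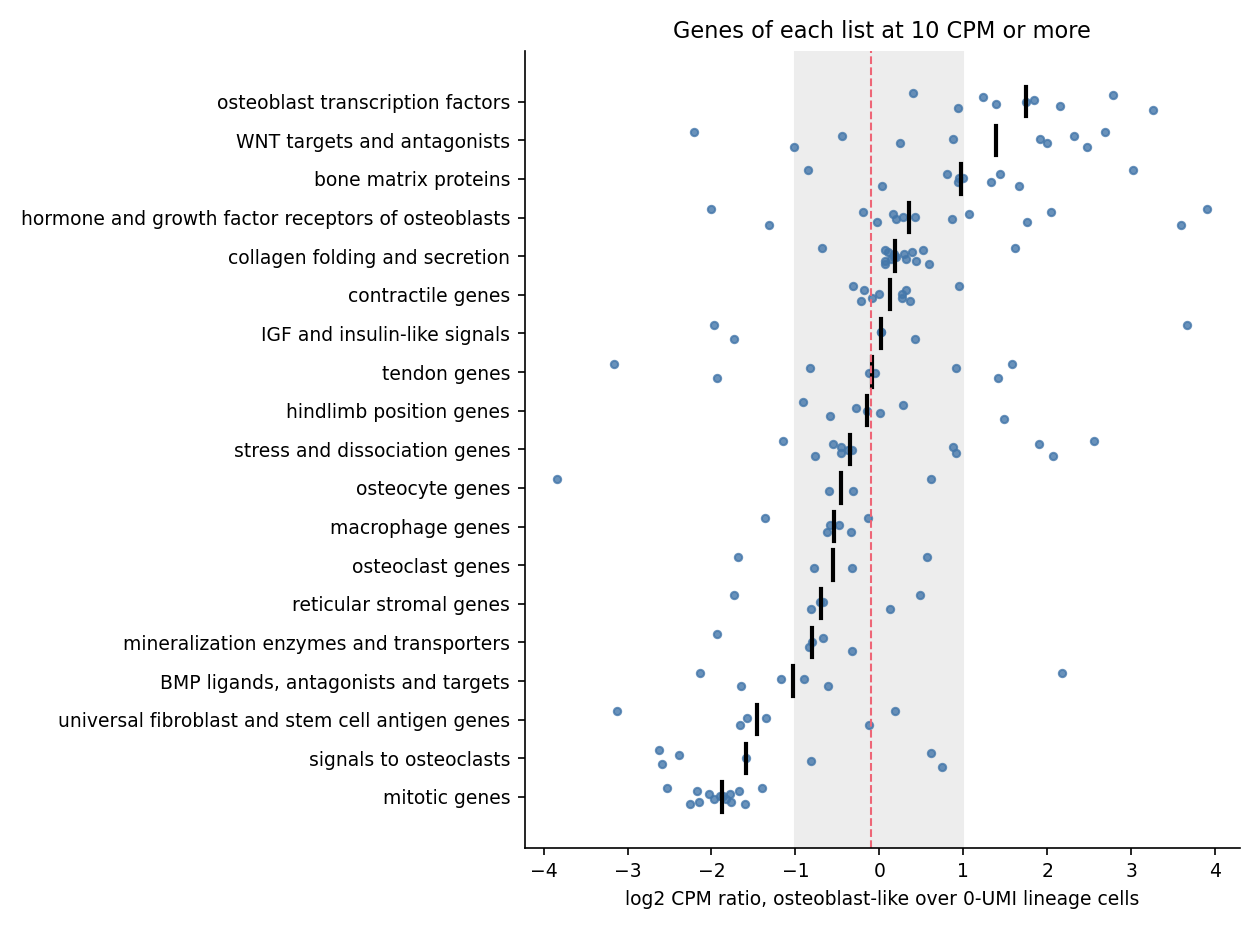
Log2 CPM ratio of osteoblast-like over 0-UMI lineage cells (horizontal) for each gene at 10 CPM or more (points) in the lists with at least 4 such genes, genes of the rule left out. Black bars are list medians, the dashed line is the median of all 7529 genes (-0.10) and the band marks less than 2-fold; osteoblast transcription factors lie furthest right (median 1.75) and mitotic genes furthest left (-1.88).

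Fewer osteoblast-like cells were in division. All 14 mitotic genes at 10 CPM or more (of 15) were at least 2-fold lower, with a median log2 ratio of -1.88 and a summed level of 271 against 962 CPM. With cells thinned to 5000 UMIs, 17 of 137 osteoblast-like cells (12.4%, 7.40% to 19.1%) had at least 3 UMIs of the 15 genes, against 39.7% (37.3% to 42.1%) of 1686 0-UMI lineage cells, 7 shallower cells left out. The cells between stood at 31.2% and the C1q cells at 53.0%. Without thinning, the shares were 39.4% and 65.6% of osteoblast-like and 0-UMI lineage cells. The mitotic genes are high in every other class, so their free RNA cannot be told apart from low expression in single cells. When cells with at least 3 such UMIs before thinning were left out of both classes, 1 of the 15 mitotic genes still reached 10 CPM and it lay within 2-fold. Deeper cells reach 3 such UMIs more readily, so values given as without cycling cells also leave out cells by depth. Of the 30 leading genes, 29 stayed 2-fold apart without the cells left out, Hist1h2ap being the exception. Of all 98 genes past 2-fold among 145 examined, 84 did.

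Of 12 stress genes at 10 CPM or more (of 16), 3 were at least 2-fold higher and 1 lower, with a median log2 ratio of -0.35, which turned to 0.18 without cycling cells. The 3 higher genes are known from the amino acid and unfolded protein response downstream of Atf4: Trib3 (89.0 against 15.1 CPM, 5.91, 5.17 to 6.75), Chac1 (35.6 against 8.47 CPM, 4.21, 3.43 to 5.14) and Ddit3 (144 against 38.3 CPM, 3.75, 3.40 to 4.14), the last named after its value was seen. Trib3 came to 3.84 without cycling cells. Asns, of the same response, stood at 1.83 (1.68 to 2.00), and the AP-1 gene Jund at 1.89 (1.61 to 2.20), both named after their values were seen. The immediate early genes Fos and Egr1, which tissue dissociation raises, stood at 0.45 and 0.59, and Fos at 0.72 with members at 3 UMIs and 1 per 10000.

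The summed markers of macrophages and osteoclasts were no higher in the osteoblast-like class. The 11 macrophage genes outside the rule summed to 391 CPM in osteoblast-like cells, 471 in 0-UMI lineage cells and 14352 in C1q cells, and of 6 at 10 CPM or more, 0 were higher and 1 was lower. Lyz2, the most abundant, was at 238 against 261 CPM and had a UMI in 65.7% of osteoblast-like and 67.7% of 0-UMI lineage cells after thinning. The 11 osteoclast genes summed to 106 against 111 CPM, with none at 0, and of 4 at 10 CPM or more, 0 were 2-fold higher and 1 was lower. The collagen-degrading protease Ctsk was at 71.3 against 47.9 CPM (1.49, 1.31 to 1.69), and Acp5 stood at 0.31. Without cells rich in osteoclast and myeloid genes, Acp5 came to 0.74, and Ctsk was then the 1 osteoclast gene at 10 CPM, with a log2 ratio of 0.78. All 6 erythroid genes, 6 of 8 endothelial, 6 of 8 muscle, 5 of 6 lymphoid, 4 of 8 neutrophil, 4 of 6 glial and 3 of 8 adipocyte genes were at 0. Within the 2 lists with a higher gene, the muscle sum was 13.7 against 5.91 CPM and the glial sum 28.2 against 11.9 CPM. Acta1 of muscle had 51 UMIs against 243 (2.45, and 0.64 after thinning, which leaves few of these UMIs) and S100b, also expressed outside glia, 100 against 469 (2.49). The part of these markers in the differences was not tested.

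Levels of genes outside the rule were then compared along the rule's sum. Lineage cells were ordered as 0 UMIs (1693 cells), 1 UMI (225), 2 or more UMIs below the threshold (170), and the osteoblast-like cells in their lowest 46, middle 45 and highest 46 by the sum. Sp7 ran through 9.06, 14.2, 37.9, 92.1, 81.2 and 86.5 CPM, so it was level across the members. Pth1r ran through 14.4, 21.7, 48.0, 151, 163 and 212 CPM, and Runx2 through 26.9, 34.1, 41.1, 46.4, 74.6 and 94.8 CPM. Mmp13 ran through 2.92, 2.34, 16.7, 43.5, 71.3 and 378 CPM, with most of its level in the highest 46 cells. Col1a1 reached its plateau at the threshold, with 1383, 1547, 2219, 3829, 3860 and 3503 CPM. Ly6a, at 648, 618, 545, 223, 221 and 208 CPM, and Cd34, at 39.2, 28.4, 13.3, 4.35, 4.97 and 4.16 CPM, were lower in all classes of members than in any class outside. The summed mitotic genes were at 962, 934, 712, 180, 288 and 359 CPM, lowest in the members with the lowest sums.

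All 15 of the highest genes were higher in the 2-or-more class than in the 1-UMI class and again in the lowest 46 members, and 13 of 15 were higher in the highest than in the lowest 46 members. Of the 15 lowest genes, 15 were lower at both of those steps and 14 were lower in the highest than in the lowest 46 members. All 5 steps went the same way for 6 of the 15 highest and 4 of the 15 lowest. The highest and lowest genes were chosen from the ends of this order, so their overall direction is fixed by the choice and only the steps between are a description.

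**Figure D4:**
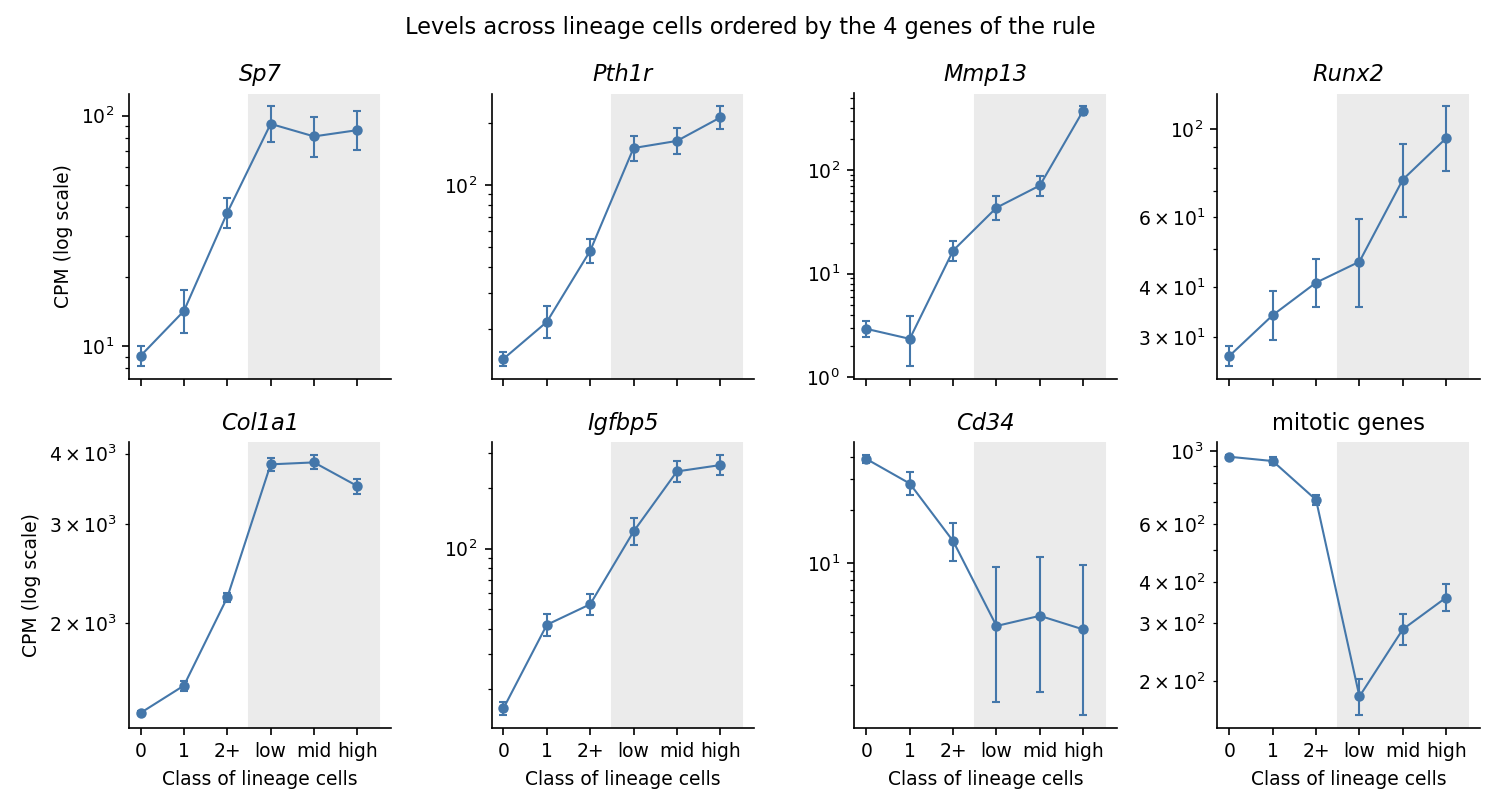
Level in CPM (vertical, log scale) of 7 genes and of the sum of 15 mitotic genes over 6 classes of lineage cells of the uninjured library: 0, 1 and 2 or more UMIs of the 4 genes, then the low, middle and high members (shaded). Bars are exact Poisson 95% intervals; Sp7 is level at 81.2 to 92.1 CPM within the members, while Mmp13 climbs from 43.5 to 378 CPM.

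Members with and without the later products differed in few genes. The 63 members with at least 3 Ibsp UMIs were set against the 52 with 0 (median depths 28673 and 23922.5 UMIs). Of 2530 genes at 50 CPM or more, 11 were at least 2-fold higher (0.435%) and 29 lower (1.15%). Mmp13 was at 247 against 31.1 CPM (7.95, 5.77 to 11.2), Cdsn at 190 against 63.8 CPM (2.98, 2.34 to 3.82) and Lifr at 86.7 against 32.7 CPM (2.65, 1.89 to 3.80). Runx2 was at 90.8 against 43.3 CPM (2.10, 1.55 to 2.88) and Pth1r at 212 against 109 CPM (1.95, 1.61 to 2.38), while Sp7 was at 97.1 against 79.7 CPM (1.22, 0.95 to 1.56). Alpl was at 252 against 243 CPM (1.04, 0.90 to 1.20), but it is a gene of the rule. Members with 0 Ibsp UMIs could pass the threshold only through Alpl and osteocalcin, so the choice of cells shapes the Alpl ratio. Lower with Ibsp were the protease inhibitor Slpi (16.7 against 128 CPM, 0.13), the WNT antagonist Sfrp2 (0.18), the cartilage and tendon matrix protein Comp (0.20) and the stromal factor Ebf1 (0.25). Slpi was detected in 17 of 63 members with Ibsp and 9 of 52 without, so its higher sum without Ibsp came from few cells.

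The 54 members with at least 3 osteocalcin UMIs were set against the 59 with 0 (median depths 25503 and 27357 UMIs), and 31 cells were in the high set of both splits. Of 2510 genes, 19 were at least 2-fold higher (0.757%) and 8 lower (0.319%). Mmp13 was at 301 against 54.8 CPM (5.49, 4.38 to 6.95). The matrix proteoglycans lumican (Lum, 161 against 41.1 CPM, 3.91, 2.98 to 5.19) and decorin (Dcn, 216 against 87.5 CPM, 2.46, 2.02 to 3.02) were higher, as were Npnt (84.4 against 35.7 CPM, 2.36) and Lifr (90.4 against 38.7 CPM, 2.34). Pth1r (171 against 177 CPM, 0.96, 0.81 to 1.14) and Sp7 (84.4 against 88.7 CPM, 0.95, 0.74 to 1.21) had intervals that span 1. The smooth muscle gene Cnn1 (0.35) and Thbs1 (271 against 620 CPM, 0.44, 0.39 to 0.49) were lower. Sfrp2, Cxcl5 and Ptx3, an acute phase protein, were among the 8 lowest in both splits, while Slpi was lower with Ibsp and higher with osteocalcin (99.1 against 32.1 CPM, 3.08, 2.24 to 4.29), where 49.3% of its UMIs in the high set came from 1 cell.

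**Figure D5:**
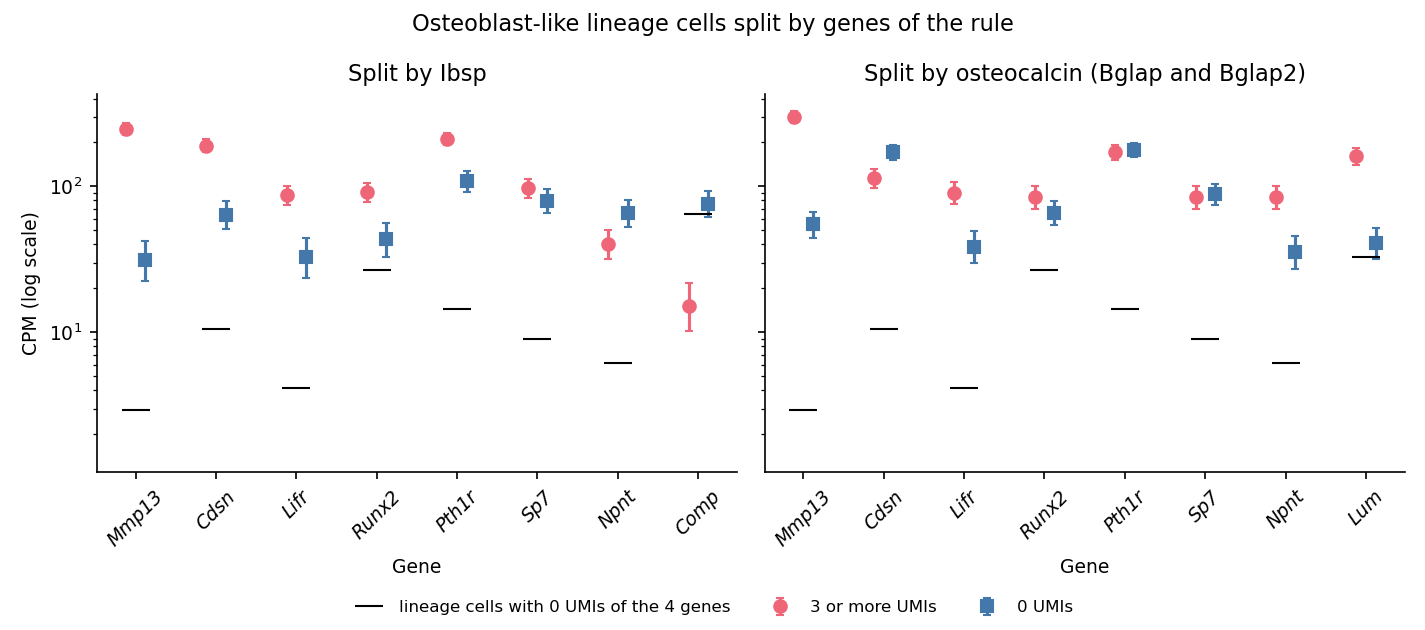
Level in CPM (vertical, log scale) of 8 genes per panel in osteoblast-like cells with at least 3 UMIs (red circles) and with 0 UMIs (blue squares) of Ibsp (left) or of Bglap and Bglap2 together (right), with exact Poisson 95% intervals. Comp is shown only on the left and Lum only on the right. Black dashes are the 0-UMI lineage cells. Mmp13 and Lifr are higher with either product, while Sp7 differs little in either panel.

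Osteoblast-like cells also lay near each other in the space of the other genes. With the genes of the rule left out, the 15 nearest neighbours of each lineage cell were found in 20 principal components of 1000 variable genes. On average 54.2% of the neighbours of an osteoblast-like cell were osteoblast-like (median 9 of 15), although such cells are 6.16% of lineage cells, and 88 of 137 had 8 or more such neighbours. The share was 8.20% for the cells between and 1.21% for 0-UMI lineage cells, of which 1560 of 1693 had none. No neighbour of their kind was found for 6 osteoblast-like cells, while 22 cells between and 7 0-UMI lineage cells had 8 or more.

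The same rule found 4 cells among 3697 lineage cells in the library from day 3 after fracture (0.108%, 0.029% to 0.28%), although lineage cells there were deeper (median 32632 against 24524 UMIs). Another 114 lineage cells at day 3 (3.08%) held at least 1 UMI of the 4 genes without passing. The 4 cells each held a different set of the 4 genes. In the order below, they held 8, 12, 35 and 25 UMIs of Col1a1 and 0, 4, 1 and 5 of Runx2. One had 1148 UMIs in all, of which 5 were Ibsp. Another had 12 Bglap and 15 Bglap2 UMIs with 1 of Sp7, the next 8 Alpl and 4 Bglap2 UMIs with 8 of Sp7 and 59 of Mmp13, and the last 10 Ibsp, 2 Bglap and 11 Bglap2 UMIs with 4 of Sp7. The count at day 3 was 0 under the stricter threshold of 10 UMIs and 4 per 10000, and 14 under a looser one of 3 UMIs and 1 per 10000.

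Summed over all lineage cells, Alpl had 25.3 CPM without injury against 0.461 CPM at day 3 (ratio 0.018, 0.014 to 0.024), and Ibsp at 14.2 and 0.722 CPM (0.051, 0.041 to 0.063). Bglap was at 6.09 and 0.169 CPM and Bglap2 at 10.4 and 0.415 CPM. Genes outside the rule did not all follow. Of the 15 highest genes, 7 were at least 2-fold lower at day 3 and 1 was higher. The share of all genes that lay this far apart between the 2 libraries was not counted, so these counts have no background. Pth1r was at 28.2 and 1.90 CPM (0.067, 0.059 to 0.077), Cdsn at 23.3 and 0.0845 CPM (0.0036), Itga11 at 13.1 and 0.407 CPM (0.031) and Trib3 at 21.7 and 1.62 CPM (0.075). Col1a1 was at 1621 and 266 CPM (0.16). Sp7, at 17.0 and 10.8 CPM (0.64, 0.59 to 0.69), Runx2, at 31.6 and 34.1 CPM (1.08, 1.02 to 1.14), and Mmp13, at 14.04 and 14.5 CPM (1.04, 0.95 to 1.13), differed less than 2-fold. Igfbp5 was the higher one, at 33.9 and 84.1 CPM (2.48, 2.36 to 2.60).

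Of the 15 genes lowest in the osteoblast-like cells, 4 were at least 2-fold lower and 4 higher at day 3, among the latter Hmga2 (183 and 1239 CPM, 6.78), Crabp1 (65.9 and 434 CPM, 6.58) and Ccl2 (172 and 536 CPM, 3.12). These counts have no share of all genes beside them either. Osteopontin, low in the osteoblast-like cells, was at 1760 and 16845 CPM (9.57). Fewer cells of a kind and less RNA per cell cannot be told apart in such sums, and with 1 library per condition, injury and library cannot be told apart either.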

How the data were processed

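The 2 10x Genomics libraries were used, 1 per group, as deposited by the authors: raw UMI counts per gene and barcode, made with Cell Ranger and mm10, per the submitters' processing notes, which also name Seurat 4.0.1. The labels give genomic DNA as the molecule although the files hold gene counts. The file headers name software version 3.1.0. Cells had at least 500 genes, 1000 UMIs and at most 10% mitochondrial UMIs, which removed 69 and then 73 of 4573 uninjured barcodes. Members and gene lists were chosen with earlier results of these data known.

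UMIs were summed over each class and divided by its total (CPM). Ratios carry exact conditional binomial 95% intervals, with fewer than 3 UMIs in a class replaced by a floor of 3, and a fold of 2 was called. Named were all genes of 4 lists (transcription factors, mineralization, matrix, osteocyte), the 15 highest and 15 lowest ratios at 50 CPM or more, the 2 highest and 2 lowest of each other list, Prrx1, EGFP and tdTomato. In the splits of the members, genes were taken from the 8 highest and 8 lowest ratios and from the leading genes. Some genes that this rule names are not reported here. The text says where another gene was chosen after its value was seen. Cells were thinned to 5000 UMIs for shares. Scrublet's automatic threshold marked 0 doublets in both libraries, so it had not worked, and all cells were kept; removing the top scores at 0.8% per 1000 barcodes was an alternative. Of 31055 gene identifiers, 30934 were found in the GENCODE annotation. The ratios and intervals were tested on simulated class sums that held counting error only, so spread between cells was not part of that test. Python 3.11.15, scanpy 1.11.5, scipy 1.17.1 and edgeR 4.0.16 (TMM factors only) were used.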

Additional observations from a re-analysis of the deposited data

How the results depend on the processing

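Lowering the minimum from 50 to 10 CPM gave 230 higher and 520 lower genes among 7529. The Sp7 ratio was 7.94 with members at 3 UMIs and 1 per 10000, 7.11 against all other lineage cells and 8.20 after thinning. Members numbered 69 at 10 UMIs and 4 per 10000, and the day 3 count was then 0. That count was 14 at 3 UMIs and 1 per 10000, 1 with Alpl and Ibsp alone and 1 at no more than 5% mitochondrial UMIs. Among genes past 2-fold, direction reversed after thinning for Acta1 (0.64), and without cycling cells for Ccna2 (1.39), Cenpa (1.18), Hist1h2ap (1.17) and Nusap1 (1.25), as leaving out cycling cells removes the UMIs these genes rest on. Among genes within 2-fold, thinning moved by over 1.5 times and turned Slc20a1 (1.31), Fam20c (1.22), Egfl7 (1.48) and Zfp521 (0.56). Thinning leaves few UMIs of low genes such as Acta1 (51 in the members before it), and fewer than 3 count as 3. Such thinned values carry a wide counting error, so they are no firm reversals. Of the 30 leading genes, chosen for the most extreme ratios, 29 kept a 2-fold difference without cycling cells and 30 under each of the 12 other settings. Of all 98 genes past 2-fold among 145 examined, fewer did so. Without cycling cells 84 were kept, and 92 without cells rich in osteoclast and myeloid genes. After thinning 93 were kept, as were 93 with members at 3 UMIs and 1 per 10000, and the remaining settings kept 95 to 98. No paired analysis was possible because each group has 1 library, which also means that no library could be left out.

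Depth limits the low genes: 3 UMIs over the members are 0.792 CPM. Sums over 137 cells of 1 library do not show how mice differ. Whether free RNA, culture or cell cycle carried any difference was not tested beyond the values given.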

Other observations

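Several genes outside the lists, or inside them but not leading, stood apart in the osteoblast-like cells and were picked after their values were seen. Tmem119, a membrane protein of bone-forming cells, was at 111 against 25.3 CPM (4.38, 3.90 to 4.90), and Clec11a (osteolectin), a growth factor for osteogenic cells, at 171 against 46.7 CPM (3.67, 3.35 to 4.01), with 2.30 left without cycling cells. The tenascin Tnn of periosteum was at 197 against 40.9 CPM (4.81, 4.42 to 5.25). The stress gene Nupr1 was at 495 against 103 CPM (4.81, 4.56 to 5.08), in 133 of 137 cells, and Pck2, a mitochondrial enzyme of the amino acid response, at 226 against 72.0 CPM (3.13, 2.90 to 3.38).

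Of genes known to be imprinted, 5 are given here, picked after their values were seen and not as a test of such genes. Plagl1 was at 51.2 against 11.5 CPM (4.45, 3.75 to 5.26) and Mest at 135 against 38.6 CPM (3.51, 3.17 to 3.87), while Meg3 was at 111 against 568 CPM (0.20, 0.18 to 0.21) and Dlk1, its neighbour in the same imprinted domain, at 9.77 against 89.1 CPM (0.11). Meg3 was also lower in members with Ibsp than without, at 62.1 against 214 CPM (0.29, 0.23 to 0.36). Cdkn1c stood at 2.03 (1.73 to 2.39) and at 1.11 without cycling cells.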
